A study of Mus musculus with 21 samples.

Results

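Tgfb1, Tgfb2, Tgfb3, Ltbp2, Tgfbr1, Tgfbr2, Smad7, Ccn2 and Tgfbi are 9 mouse genes of the transforming growth factor beta (TGF-beta) pathway and were chosen by gene name. All 9 were found in each of the 3 deposited RNA-seq tables, among 54532 genes in the hepatocyte and CCl4 tables and 34280 genes in the thioacetamide table; Ccn2 stands under its older symbol Ctgf in some of them. In the hepatocyte table, 3 libraries of wild-type primary hepatocytes had received the NLRP3 inhibitor MCC950 (10 µM) 2 h before stimulation, and 3 had received no inhibitor. All 6 were given lipopolysaccharide (LPS, 1 µg/mL) for 6 h and nigericin (10 µM), an ionophore that activates the NLRP3 inflammasome, for 30 min, so that no unstimulated hepatocytes enter the comparison. In the CCl4 table, 3 wild-type livers and 3 livers labelled Sting knockout came from mice injected with carbon tetrachloride (CCl4), a hepatotoxin that leads to fibrosis, and 3 wild-type livers came from mice injected with oil. The labels give 6 weeks for these 9 livers, whereas the design text gives 8 weeks for CCl4. In the thioacetamide (TAA) table, 3 livers with Nlrp3 deleted in hepatocytes and 3 wild-type livers came from mice that had all been given TAA, another hepatotoxin that leads to fibrosis, for 8 weeks. The sources used here do not give the alleles, the driver of the hepatocyte-specific deletion, or the strain, sex and age of the mice. The title of the study links STING, an adaptor that responds to cytosolic DNA, with NLRP3 and with pyroptosis of hepatocytes in fibrosis.

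The TGF-beta ligands, encoded by Tgfb1, Tgfb2 and Tgfb3, are secreted in a latent form bound to a propeptide and are held in the extracellular matrix by latent TGF-beta binding proteins and fibrillin until integrins, thrombospondin or proteases release them. Active ligand binds the type II receptor (Tgfbr2), which phosphorylates the type I receptor (Tgfbr1), and the type I receptor phosphorylates SMAD2 and SMAD3, which enter the nucleus with SMAD4. Smad7 is induced by the signal and inhibits the type I receptor. In injured liver the pathway is known for driving hepatic stellate cells, the vitamin A-storing pericytes of the sinusoid, to become matrix-producing myofibroblasts.

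Levels are given as FPKM, fragments scaled by the authors to gene length and library size, and groups are compared only within a table. Depth was 14883710 to 17157586 reads per hepatocyte library and 14353483 to 16684832 reads per library of the CCl4 table, as recovered from the deposited FPKM and gene lengths, and 32096879 to 68913793 counts per TAA library. Whether replicates are separate animals or cultures is nowhere stated, and p-values therefore speak of the spread among these libraries, which may be technical. Sting1, the gene for STING, was at 3.42, 1.98 and 5.28 FPKM in the livers labelled Sting knockout, against 6.10, 5.15 and 4.74 FPKM in wild-type CCl4 livers (log2 fold change -0.53, limma adjusted p = 0.761). The groups overlap, so the RNA does not show the knockout. As the allele is not given, gene-level RNA cannot settle the genotype. The title codes of these libraries begin with SWT, and they are called by their label throughout. Nlrp3 averaged 1.00 ± 0.57 CPM (counts scaled to library size) in TAA livers with the deletion and 0.83 ± 0.08 CPM in wild-type TAA livers (SD, n = 3 each; edgeR adjusted p = 0.797), in whole liver, where other cells also express it. Exons of Tgfb2, Tgfb3, Ltbp2 and Ccn2 share 124 to 764 bases with annotated genes on the opposite strand and the sources used here do not say whether strand was used in counting, so reads of such a pair cannot be told apart. None of those neighbours exceeded 0.189 FPKM in the CCl4 table.

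Wild-type CCl4 livers held more RNA of 5 of the 9 genes than oil livers, namely Ltbp2, Ccn2, Tgfb3, Tgfbr2 and Tgfb1, and of none held less. The rises ran from a log2 fold change of 0.77 ± 0.21 for Tgfbr2 to 2.22 ± 0.26 for Ltbp2 (± SE). These fold changes are of FPKM + 1, so those of low genes come out too small. The type I receptor Tgfbr1 and the matrix protein gene Tgfbi were higher in each CCl4 library than in each oil library without passing the test, and the inhibitor Smad7 averaged 3.61 ± 1.5 FPKM in CCl4 livers and 3.51 ± 0.98 FPKM in oil livers (SD, n = 3 each). The test was limma across the 11511 genes that averaged 1 FPKM or more, with Benjamini-Hochberg adjustment and a threshold of 0.05, and it called 9.19% of them higher. Ltbp2 and Tgfb3 averaged under 1 FPKM in oil livers and entered the test through the CCl4 livers, and Tgfb2 stayed below the filter. The 3 CCl4 libraries all lay above the 3 oil libraries for 8 of the 9 genes, or 7 of the 8 tested, against 16.6% of all tested genes. The median log2 fold change of the 8 tested genes was 1.02, and that of all tested genes was -0.08.

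**Figure D1:**
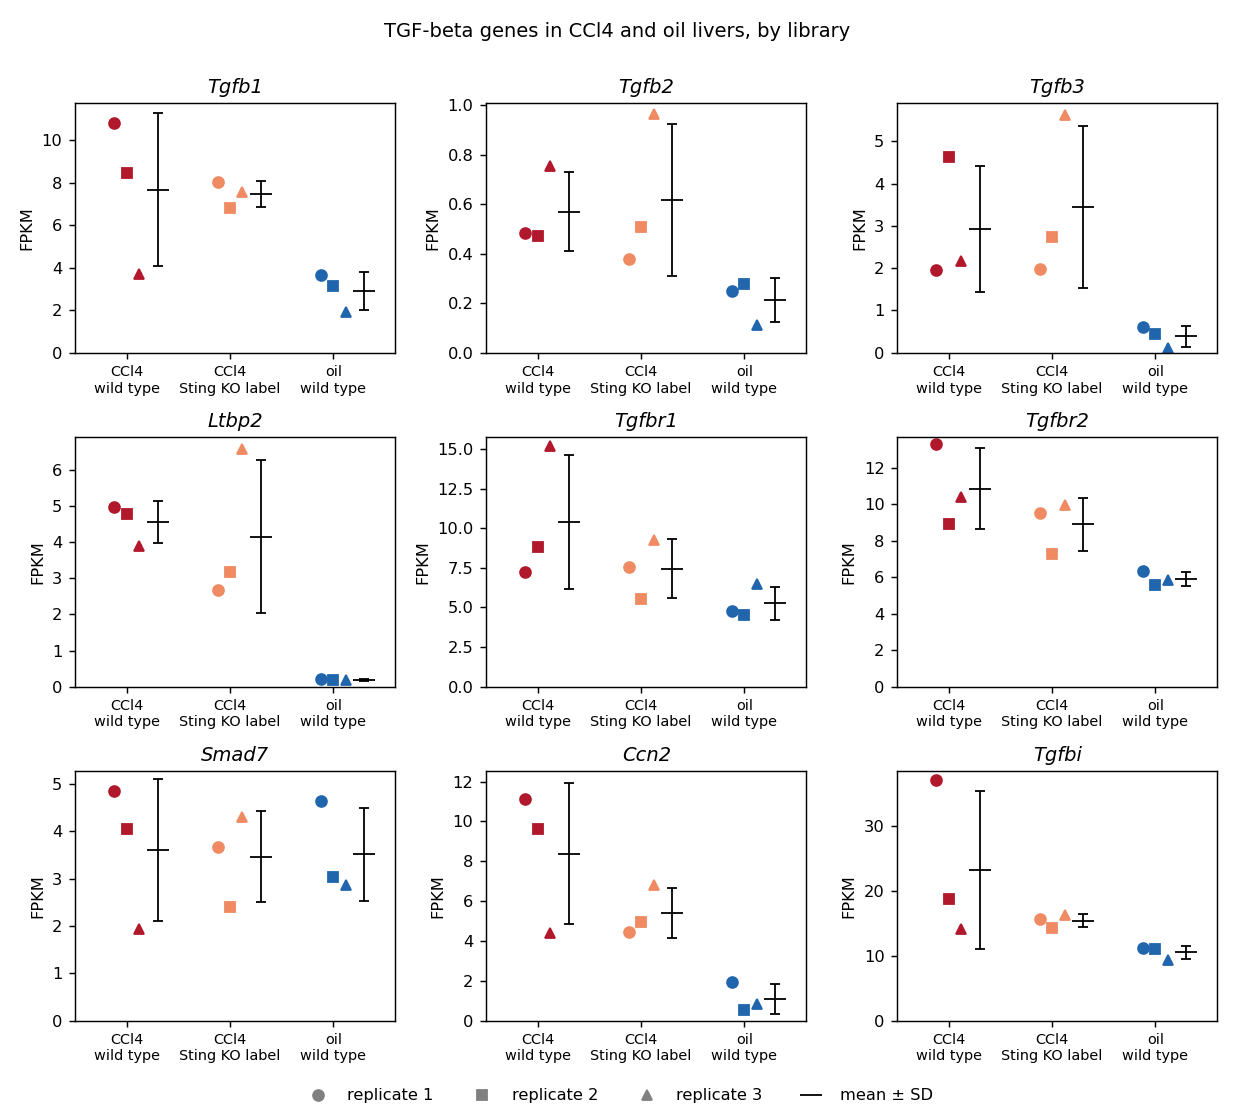
Level of each of the 9 genes in FPKM (vertical axes, each from 0) in CCl4 wild-type livers, CCl4 livers labelled Sting knockout and oil livers. Symbols are replicate libraries and black bars show the mean ± SD (n = 3); all CCl4 wild-type libraries lie above all oil libraries except for Smad7.

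Coordinates are those of the authors' tables on mm10. Among the ligands, Tgfb1 (ENSMUSG00000002603, chr7:25687002-25705077, plus strand), the form most studied in liver fibrosis and made by macrophages and many other cells, was at 10.8, 8.47 and 3.72 FPKM in CCl4 livers, against 3.66, 3.14 and 1.91 FPKM in oil livers. The lowest CCl4 library, replicate 3, lay just above the highest oil library. Tgfb1 was 2.64-fold higher by the ratio of means, with a log2 fold change of 1.08 (95% interval 0.37 to 1.78; limma adjusted p = 0.0457). The call was held without CCl4 replicate 3 (adjusted p = 0.00472), but not without CCl4 replicate 1 (0.137) or 2 (0.129), nor without oil replicate 1 (0.0728), 2 (0.103) or 3 (0.165). It was also lost with a filter at a mean of 0.1 FPKM (0.0621), with no filter (0.114), with rescaled libraries (0.0528) and when only these 2 groups were fitted (0.0769).

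Tgfb3 (ENSMUSG00000021253, chr12:86056745-86079041, minus strand), the third ligand, was at 1.97, 4.63 and 2.18 FPKM in CCl4 livers, against 0.602, 0.452 and 0.111 FPKM in oil livers. Replicate 2 was the highest CCl4 library, and the groups did not overlap. Its log2 fold change was 1.45 (95% interval 0.72 to 2.19; limma adjusted p = 0.015), on 557 reads in CCl4 libraries and 55 in oil libraries, and with edgeR on the recovered reads, with no pseudocount of 1 FPKM, it was 2.86. The call was lost without oil replicate 3, the library with 4 reads of Tgfb3 (adjusted p = 0.0661), and with no filter (0.058).

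Tgfb2 (ENSMUSG00000039239, chr1:186622792-186705989, minus strand) was the rarest ligand in these livers, at 0.485, 0.471 and 0.752 FPKM in CCl4 livers, against 0.25, 0.277 and 0.113 FPKM in oil livers. These levels rest on 51 to 81 reads per CCl4 library and 7 to 22 per oil library. The groups did not overlap, and an exact two-sided permutation test gave p = 0.1, which is the smallest that 3 against 3 libraries can give. The 3 ligands together summed to 6.65 to 13.6 FPKM in CCl4 livers and 2.14 to 4.51 FPKM in oil livers. Tgfb3 made up 27.2 ± 10.7% of that sum in CCl4 livers and 10.1 ± 4.3% in oil livers (SD, n = 3 each), while Tgfb1 was the most abundant ligand in each of these libraries.

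Ltbp2 (ENSMUSG00000002020, chr12:84783212-84876532, minus strand) encodes a latent TGF-beta binding protein that lies on elastic microfibrils but, unlike its relatives, does not bind the latent ligand covalently. It was at 4.98, 4.78 and 3.90 FPKM in CCl4 livers, against 0.217, 0.187 and 0.172 FPKM in oil livers. Each CCl4 library held 594 to 747 Ltbp2 reads and each oil library 15 to 27, so the groups lay far apart relative to the spread within either. The ratio of means was 23.8, the log2 fold change was 2.22 (95% interval 1.65 to 2.78; limma adjusted p = 0.000489), and edgeR on recovered reads gave 4.55. The call was held in all 6 fits that left out 1 library.

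The 250 bases upstream of the RefSeq start of 3 of the genes that rose are shown because these genes rose together, so that their sequences can be set side by side. They come from RefSeq on GRCm38.p6, the assembly also named mm10, which gave a window for 6 of the 9 genes. The Ltbp2 window is chr12:84876492-84876741 on the minus strand, the Tgfb1 window is chr7:25686752-25687001 on the plus strand, and the Tgfbr2 window is chr9:116175364-116175613 on the minus strand. The Ltbp2 window reaches 41 bases into the gene as the authors' table bounds it. Capitals mark the SMAD-binding element CAGAC or its reverse complement GTCTG.
Ltbp2: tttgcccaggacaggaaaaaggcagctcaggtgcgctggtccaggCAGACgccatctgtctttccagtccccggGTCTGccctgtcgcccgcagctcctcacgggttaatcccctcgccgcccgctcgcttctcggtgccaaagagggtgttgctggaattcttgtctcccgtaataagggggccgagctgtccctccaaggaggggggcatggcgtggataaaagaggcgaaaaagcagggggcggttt
Tgfb1: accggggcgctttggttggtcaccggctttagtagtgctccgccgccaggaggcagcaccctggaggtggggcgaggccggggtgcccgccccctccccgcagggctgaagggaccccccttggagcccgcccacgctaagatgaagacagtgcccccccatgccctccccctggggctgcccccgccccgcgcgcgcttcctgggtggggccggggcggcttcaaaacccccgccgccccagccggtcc
Tgfbr2: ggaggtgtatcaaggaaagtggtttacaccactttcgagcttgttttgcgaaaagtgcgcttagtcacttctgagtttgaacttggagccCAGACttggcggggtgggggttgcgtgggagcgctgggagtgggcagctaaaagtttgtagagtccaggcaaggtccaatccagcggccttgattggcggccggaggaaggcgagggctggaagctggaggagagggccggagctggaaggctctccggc
This element occurred 2 times upstream of Ltbp2, 1 time upstream of Tgfbr2 and 0 times upstream of Tgfb1. Tgfbi, which did not pass the test, and Tgfb2, which was not tested, each had 2 matches. Tgfbr1 had 0 in the window at its annotated start and 1 in a second RefSeq window 32994 bases from it. The element is short, and 42.2% of the 32851 RefSeq windows of this length hold it on 1 strand or the other. The TEAD motif GGAATG, held by 12.6% of windows, and the AP-1 motif TGANTCA, held by 6.75%, were searched on both strands and had no match in any of these windows; these motifs do not overlap each other in what was found. A match is a description of the letters, not evidence of a bound site.

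Of the receptors, Tgfbr2 (ENSMUSG00000032440, chr9:116084293-116175360, minus strand) was at 13.3, 8.92 and 10.4 FPKM in CCl4 livers, against 6.34, 5.56 and 5.82 FPKM in oil livers. The lowest CCl4 library stood clear of the highest oil library. Its log2 fold change was 0.77 (95% interval 0.30 to 1.23; limma adjusted p = 0.0338). The call was held without CCl4 replicate 2 (adjusted p = 0.0406), but not without CCl4 replicate 1 (0.103) or 3 (0.056), nor without oil replicate 1 (0.0889), 2 (0.128) or 3 (0.101).

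Tgfbr1 (ENSMUSG00000007613, chr4:47353222-47414931, plus strand) was at 7.21, 8.84 and 15.2 FPKM in CCl4 livers, against 4.78, 4.54 and 6.46 FPKM in oil livers. CCl4 replicate 3, which had the lowest Tgfb1, had the highest Tgfbr1, and the groups did not overlap. A log2 fold change of 0.82 (95% interval 0.19 to 1.45) did not pass the test (limma adjusted p = 0.0797). With the replicate number as a block the limma adjusted p was 0.0235, and 10.3% of all tested genes were then called higher. That pairing was inferred from these same values. The fit also blocked the libraries labelled Sting knockout, which did not all pair with oil by number, so this pass adds no support. The quotient of Tgfbr2 over Tgfbr1 was 1.18 ± 0.60 in CCl4 livers and 1.15 ± 0.22 in oil livers (SD, n = 3 each).

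Smad7, the inhibitory SMAD that is itself switched on by the signal, was at 4.84, 4.05 and 1.94 FPKM in CCl4 livers, against 4.64, 3.04 and 2.86 FPKM in oil livers. The groups overlap fully, with the lowest value in a CCl4 library and the highest in another. The log2 fold change was -0.01 (limma adjusted p = 0.991), and its 95% interval of -0.64 to 0.63 does not show that the level was the same. The sign turned with edgeR on recovered reads (0.03) and without CCl4 replicate 3 (0.29) or oil replicate 1 (0.16).

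Of the targets, Ccn2 (connective tissue growth factor, ENSMUSG00000019997, chr10:24595442-24598683, plus strand), a matricellular protein that is induced by TGF-beta and by YAP/TEAD signalling, was at 11.1, 9.64 and 4.38 FPKM in CCl4 livers, against 1.95, 0.508 and 0.851 FPKM in oil livers. The groups did not overlap, and CCl4 replicate 3 was again the low library. The ratio of means was 7.60 and the log2 fold change 2.13 (95% interval 1.38 to 2.88; limma adjusted p = 0.00235), or 2.90 with edgeR on recovered reads. The call was held in all 6 fits that left out 1 library. In CCl4 livers the quotient of Ccn2 over Smad7 within a library was 2.30, 2.38 and 2.26, against 0.421, 0.167 and 0.298 in oil livers. This quotient was chosen after its values were seen. Exact two-sided permutation tests of 6 such quotients, shares and sums in 5 comparisons, 30 in all, gave no p under 0.1 and no adjusted p under 0.3, and 3 against 3 libraries allow none below 0.1.

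Tgfbi (ENSMUSG00000035493, chr13:56609523-56639562, plus strand) encodes a secreted adhesion protein named for its induction by TGF-beta, and macrophages are among its sources. It had the highest mean of the 9 genes in these livers, at 37.1, 18.8 and 14.1 FPKM in CCl4 livers, against 11.2, 11.1 and 9.39 FPKM in oil livers. CCl4 replicate 1 stood well above the other CCl4 libraries, and all 3 lay above the oil libraries. A log2 fold change of 0.97 (95% interval 0.28 to 1.66) did not pass the test (limma adjusted p = 0.062). It did so with edgeR on recovered reads (0.0302), where 13.2% of all tested genes were higher, and without CCl4 replicate 3 (0.0203). Tgfbi also passed with the replicate block (0.0446), which was inferred from the same values and adds no support.

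Markers of several other liver cells moved with the same comparison, where 9.19% of all tested genes were called higher. In bulk liver, fewer cells of a type and less RNA per cell cannot be told apart. The 14 stellate cell and myofibroblast markers, all detected, summed to 205 to 389 FPKM in CCl4 livers and 60.1 to 69.4 FPKM in oil livers, and 7 of 13 tested rose. The 10 macrophage and Kupffer cell markers summed to 793 to 1228 FPKM in CCl4 livers and 204 to 295 FPKM in oil livers, and 6 of 9 tested rose. All 4 tested neutrophil markers rose. The 7 cholangiocyte markers summed to 63.2 to 294 FPKM in CCl4 livers and 36.5 to 42.8 FPKM in oil livers. They did not all move alike, as of 5 tested, 2 lay above oil in every library and 1 lay below. The 6 B and plasma cell markers summed to 11.99 to 37.5 FPKM in CCl4 livers and 2.93 to 4.63 FPKM in oil livers. Only 1 of 5 and 1 of 4 tested were higher, too few to set against that share. The 7 T and NK cell markers summed to 3.33 to 18.8 FPKM in CCl4 livers and 2.58 to 3.07 FPKM in oil livers, with 0 of 2 tested called. The 5 mesothelial markers summed to 6.18 to 23.1 FPKM in CCl4 livers and 3.73 to 6.60 FPKM in oil livers, with 0 of 4 tested called. The 9 sinusoidal endothelial markers summed to 84.0 to 110 FPKM in CCl4 livers and 90.0 to 97.9 FPKM in oil livers, and the 8 hepatocyte markers summed to 36286 to 53513 FPKM in CCl4 livers and 49029 to 64710 FPKM in oil livers. The part of these shifts in the levels of the 9 genes was not tested.

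CCl4 livers labelled Sting knockout also held more Ltbp2, Ccn2, Tgfb3 and Tgfb1 than oil livers, so that 4 of the 9 genes rose in this comparison and none fell. Here 8.0% of the 11511 tested genes were called higher. It shares its 3 oil libraries with the comparison above, so the values of each comparison are given side by side and no likeness between them is drawn. The groups did not overlap for 7 of the 9 genes, or 6 of the 8 tested, against 17.8% of all tested genes. Ltbp2 and Tgfb3, which are in both counts, averaged under 1 FPKM in oil livers and entered the test through the CCl4 livers. Markers of other cells moved here too. Summed stellate markers were at 249 to 420.5 FPKM in the livers labelled Sting knockout and 60.1 to 69.4 FPKM in oil livers, with 6 of 13 tested higher. Summed macrophage markers were at 713 to 1027 FPKM in the livers labelled Sting knockout and 204 to 295 FPKM in oil livers, with 4 of 9 tested higher. Cholangiocyte markers were at 138 to 275 FPKM in the livers labelled Sting knockout and 36.5 to 42.8 FPKM in oil livers, with 1 of 5 tested higher. Of those 5, 3 lay above oil in every library and 1 lay below. All 4 tested neutrophil markers rose. The part of all these cells in the levels of the 9 genes was not tested.

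**Figure D2:**
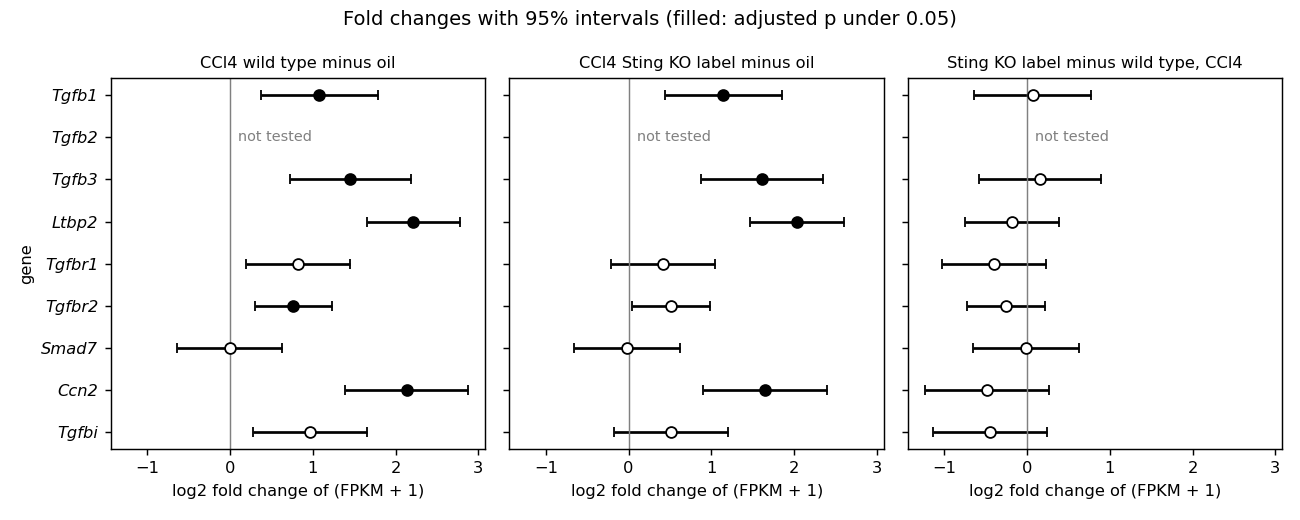
Log2 fold change of (FPKM + 1) on the horizontal axis for each gene (rows), in wild-type CCl4 minus oil livers, CCl4 livers labelled Sting knockout minus oil livers, and labelled Sting knockout minus wild-type CCl4 livers. Points are limma estimates with 95% intervals, filled where the adjusted p is under 0.05; 5, 4 and 0 genes are filled, and Tgfb2 was below the filter.

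Tgfb1 was at 8.03, 6.81 and 7.58 FPKM in the livers labelled Sting knockout, against the 1.91 to 3.66 FPKM of oil livers. All 3 lay above the oil libraries, within a narrow range. Its log2 fold change was 1.14 (limma adjusted p = 0.0388), and the call was lost in all 6 fits that left out 1 library (adjusted p 0.0678, 0.0921 and 0.154 without oil replicates 1, 2 and 3, and 0.102, 0.0622 and 0.09 without the labelled Sting knockout replicates 1, 2 and 3). The call was also lost with a filter at a mean of 0.1 FPKM (0.0575) and with no filter (0.111).

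Tgfb3 was at 1.99, 2.74 and 5.62 FPKM and Tgfb2 at 0.38, 0.507 and 0.964 FPKM in the livers labelled Sting knockout. Tgfb3 had a log2 fold change of 1.61 (limma adjusted p = 0.00979), which was lost without oil replicate 3 (0.0509). Ltbp2 was at 2.68, 3.18 and 6.58 FPKM, with a log2 fold change of 2.04 (limma adjusted p = 0.000761). Ccn2 was at 4.44, 4.94 and 6.81 FPKM, with a log2 fold change of 1.65 (limma adjusted p = 0.00975). The calls of Ltbp2 and Ccn2 were held in all 6 fits that left out 1 library.

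Tgfbr2 was at 9.51, 7.25 and 9.97 FPKM in these livers, with a log2 fold change of 0.51 over oil livers (limma adjusted p = 0.14). Tgfbr1, at 7.56, 5.52 and 9.25 FPKM, overlapped the oil libraries and had a log2 fold change of 0.42 (limma adjusted p = 0.371). Neither receptor passed the test here. Smad7 was at 3.68, 2.41 and 4.30 FPKM (log2 fold change -0.02, limma adjusted p = 0.975) and Tgfbi at 15.7, 14.3 and 16.4 FPKM (0.51, limma adjusted p = 0.314). The groups overlapped for Smad7 but not for Tgfbi.

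Replicate 3 of the livers labelled Sting knockout held the highest level of its group for each of the 9 genes except Tgfb1. The same library had the highest summed mesothelial markers of the group, at 75.7 FPKM against 6.18 and 17.3 FPKM in replicates 1 and 2, the highest stellate sum, at 420.5 FPKM against 249 and 294 FPKM, and the lowest hepatocyte sum, at 37634 FPKM against 56431 and 94120 FPKM. Oil livers held 3.73 to 6.60 FPKM of mesothelial markers. The part of this library's cell makeup was not tested, and the calls of Ltbp2, Ccn2 and Tgfb3 were held without it.

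Between the livers labelled Sting knockout and wild-type CCl4 livers, none of the 8 tested genes differed by the test, and the groups overlapped for all 9, whereas 5.13% of all tested genes separated the groups in 1 direction or the other. Of all 11511 genes tested 0.0% were called, with 366 genes at an unadjusted p under 0.05 by limma, and edgeR on recovered reads also called 0, with 662 under 0.05. The log2 fold change furthest from 0 was that of Ccn2, which averaged 5.40 ± 1.25 FPKM in the livers labelled Sting knockout and 8.38 ± 3.55 FPKM in wild-type CCl4 livers (SD, n = 3 each). This change of -0.49 had a 95% interval of -1.23 to 0.26 (limma adjusted p = 0.761).

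The intervals of the other genes also leave room for differences in either direction. They ran from -0.64 to 0.77 for Tgfb1, from -0.58 to 0.89 for Tgfb3, from -0.75 to 0.39 for Ltbp2, and from -0.65 to 0.62 for Smad7. For the receptors they ran from -1.03 to 0.23 (Tgfbr1) and from -0.72 to 0.21 (Tgfbr2), and for Tgfbi from -1.14 to 0.24. The quotient of Ccn2 over Smad7 was 1.21, 2.05 and 1.58 in the livers labelled Sting knockout, each below the 2.26 to 2.38 of wild-type CCl4 livers (exact permutation p = 0.1, the smallest possible). This quotient was chosen after its values were seen and is among the 30 permutation tests given above, none with an adjusted p under 0.3. It therefore adds no support for a difference.

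In cultured hepatocytes the 9 genes were ranked within their own table, and their levels are not compared with those in liver. Ccn2 was the most abundant by far, at 170, 160 and 161 FPKM with MCC950 and 186, 163 and 170 FPKM without inhibitor. Tgfb2 was the main ligand, and Tgfb1, Tgfb3, Ltbp2 and Tgfbi were all below 1 FPKM. No gene passed the test of MCC950, among the members or across the table.

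**Figure D3:**
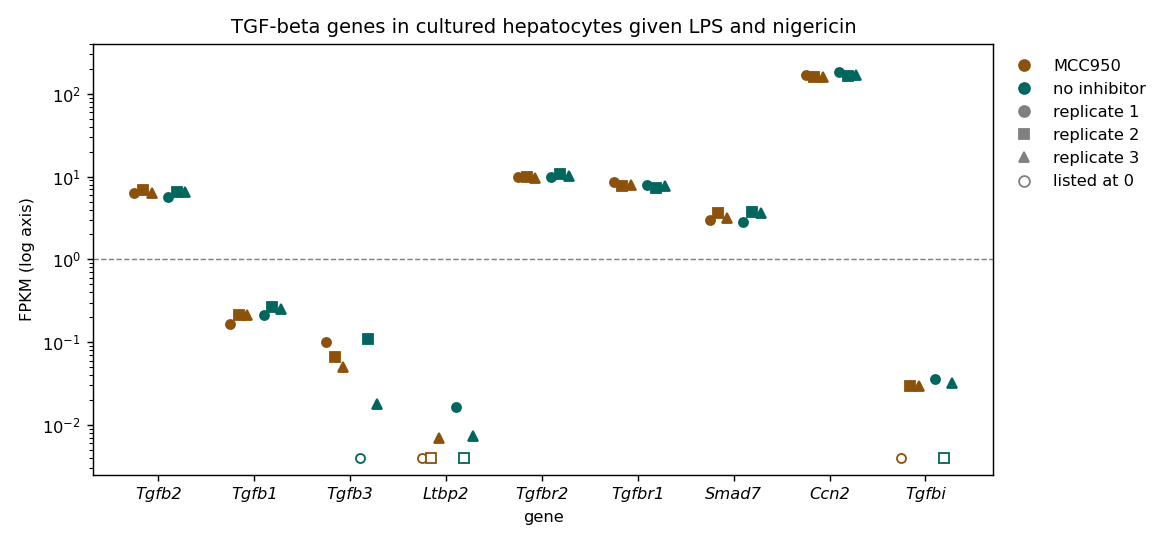
Level in FPKM (log axis) of each gene (horizontal axis) in hepatocytes given LPS and nigericin, with MCC950 (brown) and without inhibitor (green). Points are the 3 libraries of each group, open points on the bottom line are libraries listed at 0, and the dashed line is the 1 FPKM filter; Ccn2 lies at 160 to 186 FPKM and 4 genes lie below the line.

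Tgfb2 was at 6.39, 6.92 and 6.34 FPKM with MCC950 and 5.68, 6.43 and 6.54 FPKM without inhibitor. Tgfb2 made up 96.0 to 96.1% of the summed ligand FPKM with MCC950 and 94.5 to 96.4% without inhibitor. Tgfb1 lay at 0.167 to 0.213 FPKM on 15 to 19 reads with MCC950 and at 0.214 to 0.267 FPKM on 16 to 22 reads without inhibitor. Its groups did not overlap by a narrow gap, and the exact permutation p was 0.1, the smallest possible here. Tgfb3 had 13 reads with MCC950 and 7 without inhibitor over the 3 libraries, Tgfbi had 4 and 4, and Ltbp2 had 1 and 3, too few for a fold.

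**Figure D4:**
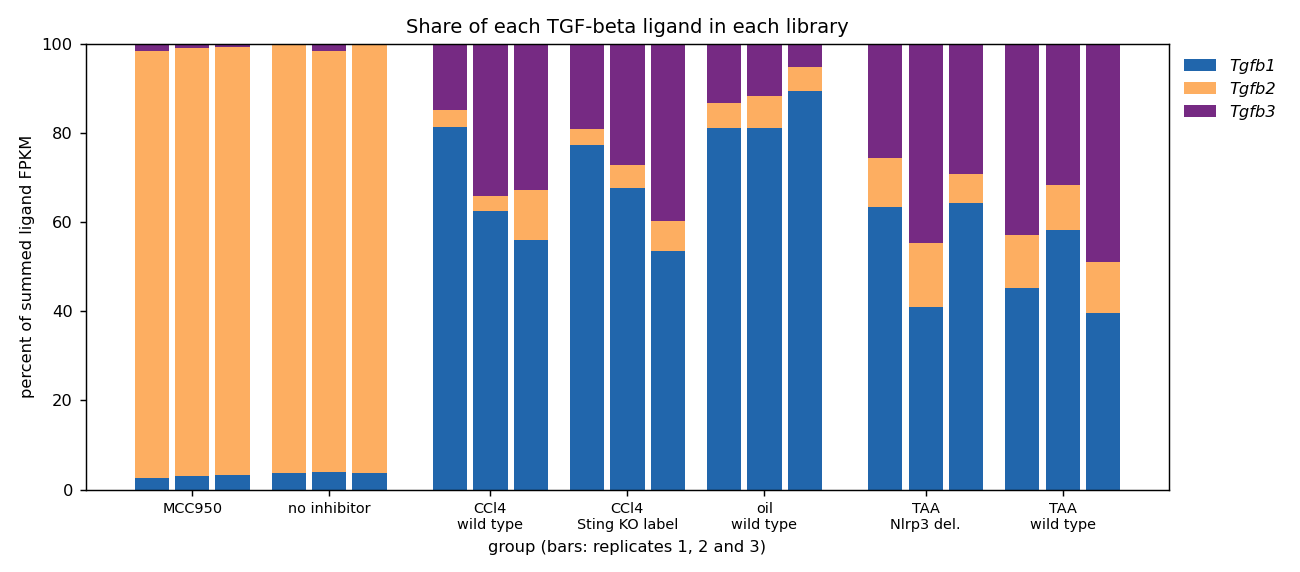
Share of Tgfb1, Tgfb2 and Tgfb3 in the summed ligand FPKM of each library, in percent, with 1 bar per replicate and the 3 tables set apart by wider gaps. Tgfb2 fills over 94% of each hepatocyte bar. In the bars of the CCl4 table Tgfb1 is the largest share. Bars of different tables are not compared.

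The receptors were both expressed in hepatocytes. Tgfbr2 was at 9.90, 9.89 and 9.65 FPKM with MCC950 and 10.0, 10.7 and 10.1 FPKM without inhibitor. All 3 MCC950 libraries were the lower ones, as for 10.8% of tested genes, and the log2 fold change was -0.06 (95% interval -0.18 to 0.06; limma adjusted p = 0.611). Tgfbr1 was at 8.52, 7.68 and 7.85 FPKM with MCC950 and 7.88, 7.38 and 7.71 FPKM without inhibitor, with a log2 fold change of 0.06 (95% interval -0.08 to 0.19; limma adjusted p = 0.666). Its groups overlapped.

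Smad7 was at 2.97, 3.66 and 3.18 FPKM with MCC950 and 2.82, 3.74 and 3.59 FPKM without inhibitor, with a log2 fold change of -0.03 (95% interval -0.28 to 0.21; limma adjusted p = 0.902). For Ccn2 the log2 fold change was -0.07 (95% interval -0.23 to 0.08; limma adjusted p = 0.627), and for Tgfb2 it was 0.07 (95% interval -0.09 to 0.23; limma adjusted p = 0.676). The intervals of these 5 tested genes were narrow, and each held 0. Across the table limma called 0.0% of 9835 genes, with 1168 at an unadjusted p under 0.05, and edgeR on recovered reads called 0, with 1535 under 0.05. The levels of Ccn2, Tgfbr2, Tgfbr1, Tgfb2, Smad7 and Tgfb1 fell in that order in both groups with no overlap between neighbours.

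Hepatocyte markers checked the label of these cultures. The 8 hepatocyte markers summed to 37654 to 40586 FPKM with MCC950 and 37146 to 42667 FPKM without inhibitor. The 14 stellate and myofibroblast markers summed to 1.46 to 1.76 FPKM with MCC950 and 1.36 to 1.76 FPKM without inhibitor. Of these, Acta2, Col1a1, Colec11 and Ngfr were at 0 in all 6 libraries, and only Reln averaged 0.1 FPKM or more. The 7 cholangiocyte markers summed to 60.8 to 70.7 FPKM with MCC950 and 56.5 to 68.4 FPKM without inhibitor. Of these 7, only 3 averaged 1 FPKM or more, and Krt7 and Cldn7 averaged under 0.1 FPKM in both groups. The 9 sinusoidal endothelial markers summed to 5.96 to 6.82 FPKM with MCC950 and 5.30 to 6.19 FPKM without inhibitor. The part of other cells in the levels of the 9 genes was not tested. The 10 macrophage markers summed to 27.5 to 35.2 FPKM with MCC950 and 28.7 to 35.6 FPKM without inhibitor. Nearly all of that sum was Cd68, at 31.1 FPKM with MCC950 and 30.9 FPKM without inhibitor, while each of the other 9 averaged under 0.5 FPKM and the Kupffer cell marker Vsig4 was at 0.

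In TAA livers none of the 9 genes passed the test of the hepatocyte Nlrp3 deletion (edgeR quasi-likelihood test on counts, adjusted p under 0.05), where 1.37% of 18619 tested genes were called higher. Tgfbr2 and Tgfbi came closest and were the 2 genes whose groups did not overlap, on the higher side, as was so for 17.5% of tested genes. Mean CPM was also higher with the deletion for Tgfb1, Tgfb2, Tgfb3, Ltbp2, Tgfbr1 and Ccn2, with overlapping groups, and lower for Smad7. Values here are CPM scaled by TMM factors, from the deposited counts.

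**Figure D5:**
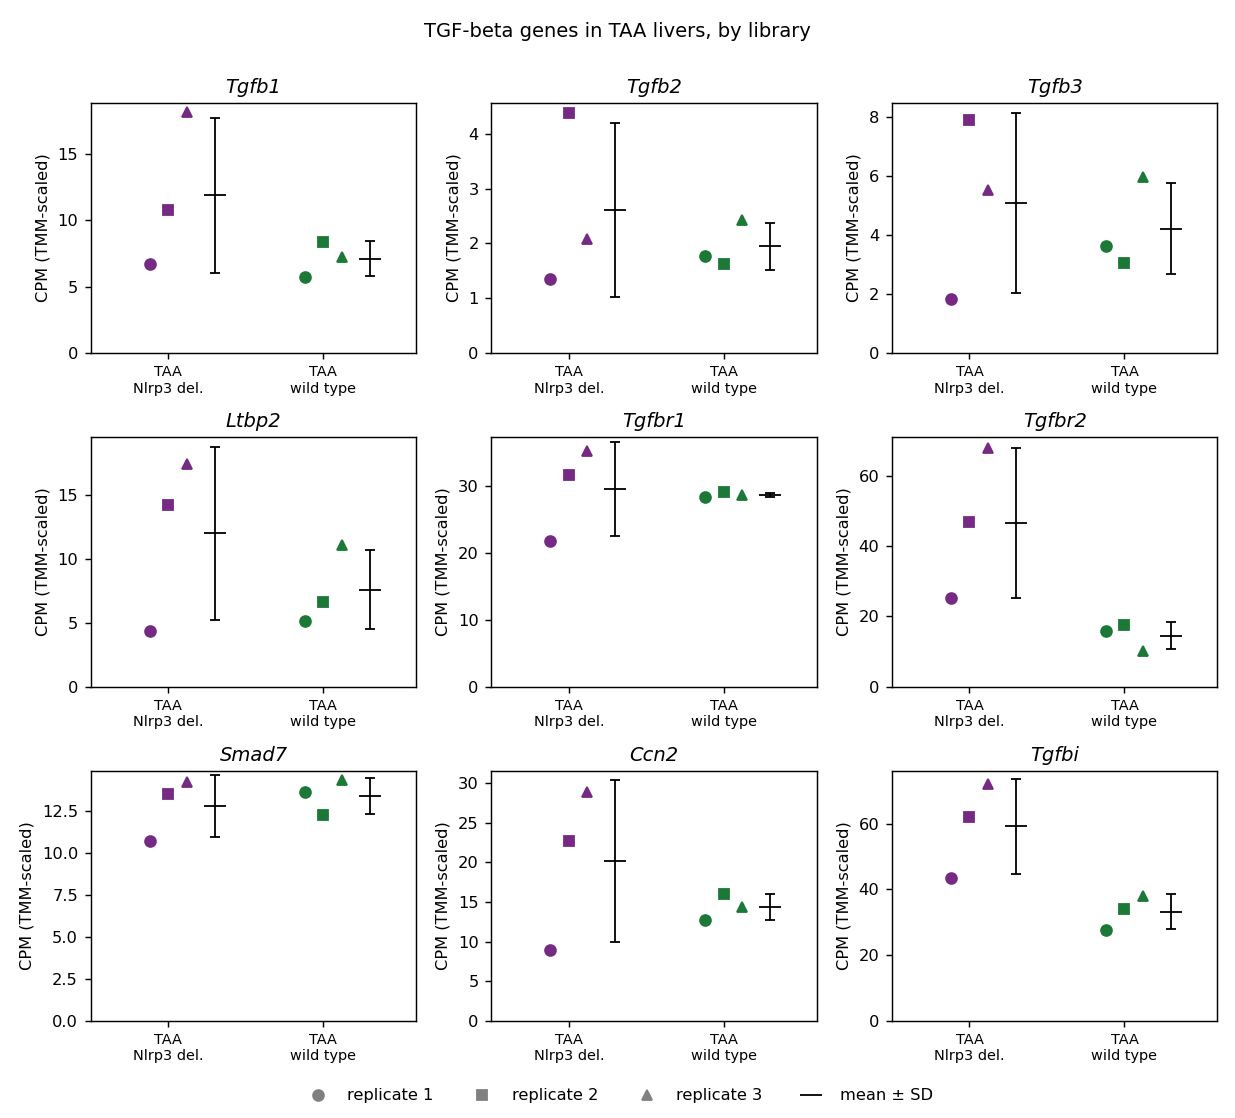
Level of each of the 9 genes in TMM-scaled CPM (vertical axes, each from 0) in TAA livers with the hepatocyte Nlrp3 deletion and wild-type TAA livers. Symbols are replicate libraries and black bars show the mean ± SD (n = 3); the groups do not overlap for Tgfbr2 and Tgfbi, and replicate 1 of the deletion lies lowest of its group in each panel.

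Tgfbr2 was at 25.1, 46.8 and 67.9 CPM in livers with the Nlrp3 deletion, against 15.9, 17.5 and 10.1 CPM in wild-type TAA livers. Each library with the deletion lay above each wild-type library, with replicate 1 the nearest. The log2 fold change was 1.69 ± 0.38 (SE), with an edgeR adjusted p of 0.0532. The gene passed with DESeq2 (0.000792), with limma on FPKM (0.0211), with no filter (0.0174), where 6.08, 21.7 and 3.4% of tested genes were called higher, and without replicate 1 of the deletion (0.00147), but not without any of the other libraries (0.117 to 0.197). Tgfbr1 was at 21.8, 31.6 and 35.3 CPM with the deletion and 28.4, 29.0 and 28.6 CPM in wild type, and its groups overlapped. Its log2 fold change was 0.04 ± 0.22 (SE; edgeR adjusted p = 0.911). The quotient of Tgfbr2 over Tgfbr1, in FPKM and therefore per length, was 0.918, 1.18 and 1.54 with the deletion, against 0.447, 0.481 and 0.279 in wild type, a description chosen after the values were seen.

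Tgfbi was at 43.6, 61.9 and 72.1 CPM with the deletion, against 27.7, 34.0 and 38.1 CPM in wild type. The groups did not overlap. The log2 fold change was 0.83 ± 0.24 (SE), with an edgeR adjusted p of 0.0779, and it passed with DESeq2 (0.0258), with limma on FPKM (0.0268) and without replicate 1 of the deletion (0.00386). Ccn2 was at 8.86, 22.7 and 28.9 CPM with the deletion and 12.7, 16.0 and 14.4 CPM in wild type (log2 fold change 0.49 ± 0.39 SE, edgeR adjusted p = 0.442), so that replicate 1 of the deletion lay below wild type and the others above. Smad7 was at 10.7, 13.5 and 14.2 CPM with the deletion and 13.6, 12.2 and 14.4 CPM in wild type, with overlapping groups (log2 fold change -0.06 ± 0.21 SE, edgeR adjusted p = 0.864).

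Tgfb1 was at 6.68, 10.8 and 18.2 CPM with the deletion and 5.69, 8.36 and 7.27 CPM in wild type (log2 fold change 0.75 ± 0.38 SE, edgeR adjusted p = 0.232). Ltbp2 was at 4.37, 14.2 and 17.4 CPM with the deletion and 5.09, 6.60 and 11.1 CPM in wild type (0.66 ± 0.51 SE, edgeR adjusted p = 0.422). Both overlapped. Tgfb3 was at 1.81, 7.91 and 5.53 CPM with the deletion and 3.62, 3.06 and 5.99 CPM in wild type (0.27 ± 0.53 SE, edgeR adjusted p = 0.766). Tgfb2 was at 1.34, 4.39 and 2.08 CPM with the deletion and 1.76, 1.63 and 2.43 CPM in wild type (0.42 ± 0.51 SE, edgeR adjusted p = 0.611), and neither separated the groups.

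Replicate 1 of the deletion correlated more with wild-type libraries (mean r = 0.945) than with its own group (0.902). These correlations are over log2(FPKM + 1) of the genes averaging 1 FPKM or more. Without replicate 1 of the deletion 5 of the 9 genes were called higher, namely Tgfbr2, Tgfbi, Ccn2, Tgfb1 and Ltbp2, where 17.9% of all tested genes were. That library was singled out from these same values and lay lowest of its group for each of the 9 genes. Calls gained without it, here and for Tgfbr2 and Tgfbi above, therefore add no support. Mitochondrial genes took 12.5, 5.63 and 6.94% of counts in livers with the deletion and 30.4, 34.7 and 27.8% in wild-type TAA livers. The summed hepatocyte markers were 25658 to 33493 FPKM with the deletion and 9311 to 10230 FPKM in wild type, the stellate markers 47.0 to 134 FPKM with the deletion and 31.0 to 47.7 FPKM in wild type, and the macrophage markers 86.2 to 306 FPKM with the deletion and 73.7 to 83.4 FPKM in wild type. The median log2 fold change of all tested genes was -0.04 over 18619 genes with TMM-scaled counts. It was 0.33 over 11165 genes with limma on FPKM and -0.37 over 33475 genes with DESeq2. With edgeR it was -0.34 over 33475 genes with no filter, and -0.046 over 18619 genes with RLE factors. These medians are over different gene sets, so they do not show how far a level depends on the scaling. The part of these shifts in the levels above was not tested.

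The 9 genes were also ranked by level per length within each liver group, and no level is compared between the CCl4 and TAA tables. Tgfbi had the highest mean in each of the 5 liver groups. Its lowest library lay above the highest library of the gene next by mean, but in replicate 3 of wild-type CCl4 livers Tgfbr1 (15.2 FPKM) exceeded Tgfbi (14.1 FPKM). In the CCl4 table Tgfbr2 followed by mean, and it overlapped the gene below it in all 3 groups. Tgfb2 was lowest in each liver group except oil, where Ltbp2 was lowest and overlapped it. Ltbp2 ranked 6th of 9 in both CCl4 groups, where it overlapped its lower neighbour Smad7.

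The wider pathway was covered by 6 lists with 77 further genes. In wild-type CCl4 against oil livers 66 of them were tested, and 22 rose while 1 fell (9.19% and 6.15% of all tested genes), with a median log2 fold change of 0.34. Of the 22 that rose, 10 averaged under 1 FPKM in oil livers and were tested only through the CCl4 libraries. Of 18 tested target genes 13 rose, 4 of them such genes, with a median of 1.63, and 0 of 7 SMAD genes passed, with a median of -0.01. In the livers labelled Sting knockout against the same oil livers, 18 rose and 1 fell (8.0% and 5.91% of all tested genes), 11 of the 18 tested targets among them, and 8 of the 18 that rose averaged under 1 FPKM in oil livers. Several targets (Acta2, Col1a1, Col3a1, Tagln) are also stellate cell markers, and their list and that one are not independent.

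Among targets, Col1a1, Col1a2 and Col3a1 encode the chains of fibrillar collagens I and III. Col1a1 averaged 67.4 ± 42.3 FPKM in wild-type CCl4 livers and 1.10 ± 0.38 FPKM in oil livers (log2 fold change 4.87, limma adjusted p = 0.000161). Col1a2 averaged 38.2 ± 17.7 FPKM in wild-type CCl4 livers and 1.16 ± 0.23 FPKM in oil livers (4.08, limma adjusted p = 0.000137). Col3a1 had a log2 fold change of 3.89 and Sparc, a collagen-binding matricellular protein, of 2.45. In livers labelled Sting knockout against oil the 4 log2 fold changes were 5.24 for Col1a1, 4.25 for Col1a2, 3.85 for Col3a1 and 2.64 for Sparc, all called.

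Of the 10 tested genes of the latent complex and its activation, 3 rose in wild-type CCl4 livers. All 3 averaged under 1 FPKM in oil livers and entered the test through the CCl4 libraries, so their count supports nothing. Thbs1, which encodes the activator thrombospondin, averaged 7.14 ± 4.13 FPKM in wild-type CCl4 livers and 0.163 ± 0.094 FPKM in oil livers (log2 fold change 2.68, limma adjusted p = 0.00424). Fbn1, the fibrillin gene, averaged 3.33 ± 0.19 FPKM in wild-type CCl4 livers and 0.423 ± 0.080 FPKM in oil livers (1.61, limma adjusted p = 0.0012). Ltbp3, a binding protein that does carry latent ligand, averaged 3.05 ± 0.50 FPKM in wild-type CCl4 livers and 0.641 ± 0.208 FPKM in oil livers (1.31, limma adjusted p = 0.0094). In livers labelled Sting knockout against the same oil libraries, the log2 fold changes were 1.34 for Fbn1, 1.37 for Ltbp3 and 2.59 for Thbs1, which were the 3 called of the 10 tested.

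Of the 12 tested inhibitors and modulators, 3 rose in wild-type CCl4 livers. Of these, 2 (Pmepa1 and Tgfb1i1) averaged under 1 FPKM in oil livers and entered the test through the CCl4 libraries. The count is therefore not set against the 9.19% of all tested genes that rose. Fstl1, a secreted follistatin-like glycoprotein, averaged 18.0 ± 7.6 FPKM in wild-type CCl4 livers and 1.49 ± 0.20 FPKM in oil livers (log2 fold change 2.84, limma adjusted p = 0.000521). Pmepa1, a feedback inhibitor that sequesters receptor SMADs, had a log2 fold change of 1.01 (limma adjusted p = 0.00878). Tgfb1i1 (Hic-5) had 0.85 (limma adjusted p = 0.0262), which was lost without CCl4 replicates 2 (0.0944) or 3 (0.0585) and without oil replicates 1 (0.0638) or 2 (0.119), and with no filter (0.0688). In livers labelled Sting knockout, Fstl1 (2.68), Pmepa1 (1.09), Tgfb1i1 (1.01) and the activin-binding Fst (1.02) were called, where 8.0% of all tested genes rose. Pmepa1 and Tgfb1i1 entered this test too through the CCl4 libraries. Fst was lost without oil replicates 2 (0.0753) or 3 (0.0878) and without labelled Sting knockout replicates 1 (0.071) or 2 (0.0514), and with no filter (0.0672), and Tgfb1i1 was lost without oil replicate 2 (0.0677) or labelled Sting knockout replicate 3 (0.0537).

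Of the 11 other family ligands tested, 2 rose and 1 fell in wild-type CCl4 livers, where 9.19% of all tested genes rose and 6.15% fell. Counts this small do not set the list apart from those shares. Inhbe, a liver-made activin subunit, was the gene that fell, to 3.36 ± 1.47 FPKM in wild-type CCl4 livers, against 11.5 ± 3.0 FPKM in oil livers (log2 fold change -1.53, limma adjusted p = 0.0117). The call was lost without oil replicate 1 (0.0507) or 3 (0.0541). Inhbb, another activin subunit, averaged under 1 FPKM in oil livers and entered the test through the CCl4 libraries. It rose by 0.89 (limma adjusted p = 0.0211), lost without CCl4 replicates 1 (0.061) or 2 (0.0778) and oil replicates 2 (0.0767) or 3 (0.086). Gdf10 rose by 1.27 (limma adjusted p = 0.0261), lost without CCl4 replicates 1 (0.0754) or 2 (0.0643) and oil replicates 2 (0.0775) or 3 (0.105). With no filter Inhbb (0.0524) and Gdf10 (0.083) were also lost. Of 8 tested co-receptors and family receptors 1 rose, which does not set that list apart from the 9.19% either. This was the endothelial type I receptor Acvrl1, by 0.84 (limma adjusted p = 0.0148), lost without oil replicates 1 (0.0567) or 2 (0.0634).

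In livers labelled Sting knockout, Inhbe was called lower than in the same oil livers, by a log2 fold change of -1.27 (limma adjusted p = 0.0306). That call was lost with no filter (0.095), without oil replicates 1 (0.105) or 3 (0.117) and without labelled Sting knockout replicates 1 (0.102) or 2 (0.0825). None of the 77 genes was called for labelled Sting knockout against wild type under CCl4 (66 tested), for the Nlrp3 deletion in TAA livers (74 tested) or for MCC950 in hepatocytes (37 tested).

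For each member called in wild-type CCl4 against oil livers, the genes with the most similar profile over the 9 libraries of the CCl4 table were found among 11511 genes by the root mean square difference between centred log2(FPKM + 1) values. Tgfbr2 had the closest neighbours, Lamb1 (0.0717), a laminin chain, Mapre2 (0.0794), and Slc29a3 (0.0937). Tgfb1 was nearest to Cln6 (0.134), Igsf8 (0.141) and Pld3 (0.156). Tgfb3 was nearest to the caveolar genes Cavin1 (0.161) and Ehd2 (0.223) and to Ltbp3 (0.226). Ltbp2 was nearest to Lbh (0.171), Sparcl1 (0.205) and Timp2 (0.219), and Ccn2 to Sparcl1 (0.307), Cdkn1a (0.311) and Olfml3 (0.314). These differences are in log2 units, are smaller for genes that vary less, and are a description of these libraries.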

How the data were processed

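RNA was sequenced in 21 libraries in 7 groups of 3; genotype and treatment labels gave the groups and titles the replicate numbers. The submitters' processing notes name HISAT2 2.2.1, featureCounts 1.5.0-p3 and mm10, without saying what each was used for. The TAA table holds raw counts with FPKM, per the file headers, and the hepatocyte and CCl4 tables hold FPKM deposited by the authors, whose denominator no source used here states. In those FPKM tables, FPKM × length divided by its value for 1 read was whole (within 0.05) for 100% of values above 0, and gave the reads used for depth and for edgeR.

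FPKM were tested with limma 3.58.1 (intensity trend, pseudocount 1, genes averaging 1 FPKM or more, all 3 groups of the CCl4 table fitted together). Counts were tested with edgeR 4.0.16, by its quasi-likelihood test after TMM scaling and filterByExpr, in R 4.3.3. All tests are two-sided, p-values were adjusted by Benjamini-Hochberg over every gene tested in a comparison, and fits were checked on simulated data. Single values below the filter were compared by an exact permutation test. The members, gene lists and tests were chosen with earlier results of these data known. All 9 members were named in each comparison, and from each pathway list up to 4 called genes with the smallest p.

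The deviations of same-numbered libraries correlated above 0.1 in each of the 3 pairs in wild-type CCl4 against oil (0.225, 0.319 and 0.516) and in the labelled Sting knockout against wild type (0.189, 0.176 and 0.12). This pairing rests on the data, as no label names a common litter or day, and calls gained with the block add no support. Alternatives were the pseudocount, filter, scaling, edgeR on reads, DESeq2 1.42.0, RLE factors, limma on FPKM, the replicate block, the 2 groups alone, each library left out and, added after seeing the data, TAA counts without mitochondrial, rRNA and pseudogene features.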

Additional observations from a re-analysis of the deposited data

How the results depend on the processing

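Against 5 members called in wild-type CCl4 over oil livers, 3 were called with no filter and 2 to 5 without 1 library, the 5 without CCl4 replicate 3 holding Tgfbi in place of Tgfbr2. With no filter 1503 of 26956 genes were called in either direction, and without 1 library 936 to 1427 of 11407 to 11602 genes. Against 4 in livers labelled Sting knockout over oil, 2 to 3 were called without 1 library, where 781 to 1671 of 11464 to 11602 genes were called in either direction. In the TAA comparison DESeq2 called 2 members, limma on FPKM 2 and no filter 1, against 0. Those settings called 6.08, 21.7 and 3.4% of all tested genes higher. Fits without 1 library called 0 to 5 members, the 5 without replicate 1 of the deletion, where 17.9% of all tested genes were called higher. Called genes in all numbered 2 with no filter and 0 to 1 without 1 library for MCC950, against 0. They numbered 2790 with edgeR on reads and 936 to 1427 without 1 library for wild-type CCl4, against 1766, and 2436 and 781 to 1671 for the labelled Sting knockout over oil, against 1601. For labelled Sting knockout against wild type they numbered 1 with a filter at 0.1 FPKM, 2 with no filter and 0 to 1 without 1 library, against 0. For the Nlrp3 deletion, against 322, they numbered 1 with RLE factors, 3774 with DESeq2, 2642 with limma on FPKM, 1593 with no filter, 699 without mitochondrial, rRNA and pseudogene counts and 0 to 7555 without 1 library, the highest without replicate 1 of the deletion and 0 to 16 without any other. The lowest counts for CCl4 over oil came without oil replicates (936 to 974 in wild type, 781 to 870 with the Sting knockout label). The cause was not tested.

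The replicate block called 2 genes in the TAA comparison and 0 for labelled Sting knockout against wild type. Beside Tgfbr1 and Tgfbi in wild-type CCl4 against oil, it changed no member's call in the 5 comparisons. Same-numbered libraries did not all correlate above 0.1 for MCC950 (0.179, 0.218 and 0.0850, each library best with its own number), for labelled Sting knockout over oil (0.0223, 0.179 and 0.0929) or for Nlrp3 (0.075, -0.036 and -0.024), where not every library matched its own number best.

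Signs turned for these uncalled log2 fold changes, as ranges without 1 library. Smad7 ran from -0.13 to 0.026 for MCC950, from -0.21 to 0.29 for CCl4 over oil (0.025 with edgeR on reads), from -0.15 to 0.16 for labelled Sting knockout over oil, and from -0.14 to 0.054 for Nlrp3 (0.21 with limma on FPKM). For labelled Sting knockout against wild type, Tgfb1 ran from -0.32 to 0.34 (-0.016 with edgeR on reads), Tgfb3 from -0.17 to 0.45, Ltbp2 from -0.50 to 0.025 and Smad7 from -0.31 to 0.19 (0.0080 with rescaled libraries). For Nlrp3, Tgfb2 ran from -0.17 to 0.74, Tgfb3 from -0.18 to 0.68 and Tgfbr1 from -0.092 to 0.23. At 0 to 22 reads per library, Tgfb1, Tgfb3, Ltbp2 and Tgfbi in hepatocytes and Tgfb2 in oil livers are limited by depth.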
